A study of Mus musculus with 12 samples.

Results

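The 10 genes described here encode enzymes that make and use kynurenine and NAD in mouse kidney cortex. They are Afmid, Kmo, Kynu, Haao, Acmsd, Qprt, Nadsyn1, Nampt, Nmnat1 and Nnmt, they were chosen by name for their place in these pathways, and all 10 of 10 were found among the 23183 gene symbols measured by RNA sequencing in each of 12 libraries. Kidney cortex was collected on day 7 after unilateral ureteral obstruction (UUO), an operation that closes the ureter of a single kidney, from male C57BL/6N mice that were 6 to 7 weeks old. Of each mouse the obstructed (UUO) kidney and the unobstructed contralateral (CL) kidney were used, so the CL kidney is the control but comes from an operated animal. Acot12+/+ mice, labelled wild type, and Acot12-/- mice, which carry a mutant allele of the acyl-CoA thioesterase gene Acot12 in all cells, gave 4 groups of 3 libraries: Acot12+/+ CL, Acot12+/+ UUO, Acot12-/- CL and Acot12-/- UUO. The labels number the libraries without naming the mice, and the p-values measure the spread between these libraries.

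NAD is the coenzyme that carries electrons in energy metabolism and is consumed by sirtuins and poly(ADP-ribose) polymerases. Cells build it de novo from tryptophan through kynurenine, or rebuild it from nicotinamide by salvage, and the proximal tubule of the kidney is known for holding the whole de novo route. Acmsd takes an intermediate of that route away from NAD, and Nnmt methylates nicotinamide so that it leaves the salvage cycle.

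Values are FPKM, fragments per kilobase of transcript scaled by library, and differences are log2 fold changes on log2(FPKM + 1) from limma with Benjamini-Hochberg adjusted p-values over 13243 genes. A gene was called at an adjusted p under 0.05, and ± is the SD of 3 libraries. The upper quartile of FPKM was 10.58 to 11.77 in every library, while the summed FPKM was 799670 to 977981 in CL and 491078 to 686425 in UUO libraries. Scaling all libraries to equal totals therefore moved the median log2 fold change of all genes from 0.01 to 0.62 in Acot12+/+ and from -0.01 to 0.44 in Acot12-/- kidneys, and the share of calls that were lower in UUO from 50.3% to 12.4% and from 50.5% to 20.3%. Acot12 itself was 73.8, 52.7 and 78.1 FPKM in Acot12+/+ CL libraries against 9.14, 9.01 and 6.80 in Acot12-/- CL libraries, and 9.98, 16.7 and 21.2 in Acot12+/+ UUO against 3.28, 1.80 and 3.86 in Acot12-/- UUO libraries. Each Acot12-/- library was below each Acot12+/+ library of the same kidney side. Along the second principal component (9.46% of the variance) Acot12-/- CL replicate 2 stood at -52.3, apart from 22.2 and 33 for the other Acot12-/- CL libraries. Some results that include this library are also given without it.

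Acmsd, Haao, Kmo, Afmid, Nampt and Nmnat1 were lower in UUO than in CL kidneys of both genotypes, Kynu, Qprt and Nadsyn1 were called lower in Acot12-/- kidneys, and Nnmt was higher in both. In Acot12+/+ kidneys 7 of the 10 genes were called, 6 lower and 1 higher, where 47.5% of all genes tested were called (23.9% lower and 23.6% higher). In Acot12-/- kidneys all 10 were called, 9 lower and Nnmt higher, against 53.7% of all genes (27.2% lower and 26.6% higher). Medians over these genes were -0.99 (Acot12+/+) and -1.36 (Acot12-/-) on the log2 scale, beside 0.01 and -0.01 for all genes. Fewer cells of a type and less RNA per cell cannot be told apart in such bulk samples. Same-numbered kidneys were taken as those of 1 mouse. In this comparison 9 of the 10 genes were lower on the obstructed side in 6 of 6 mice, and Nnmt was higher in 6 of 6. Of all genes 30.1% were lower and 29.3% higher in every mouse. The smallest of these differences was -0.06 on the log2 scale, for Kynu in an Acot12+/+ mouse. With libraries scaled to equal totals, 5 and 8 of the genes were called in the genotypes in turn. Of these 4 and 7 were lower, beside 7.91% and 11.7% of all genes, and 1 was higher, beside 56.1% and 45.9%. Kynu, Qprt and Nadsyn1 then had positive, uncalled log2 fold changes in Acot12+/+ kidneys (0.31, 0.29 and 0.24).

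**Figure D1:**
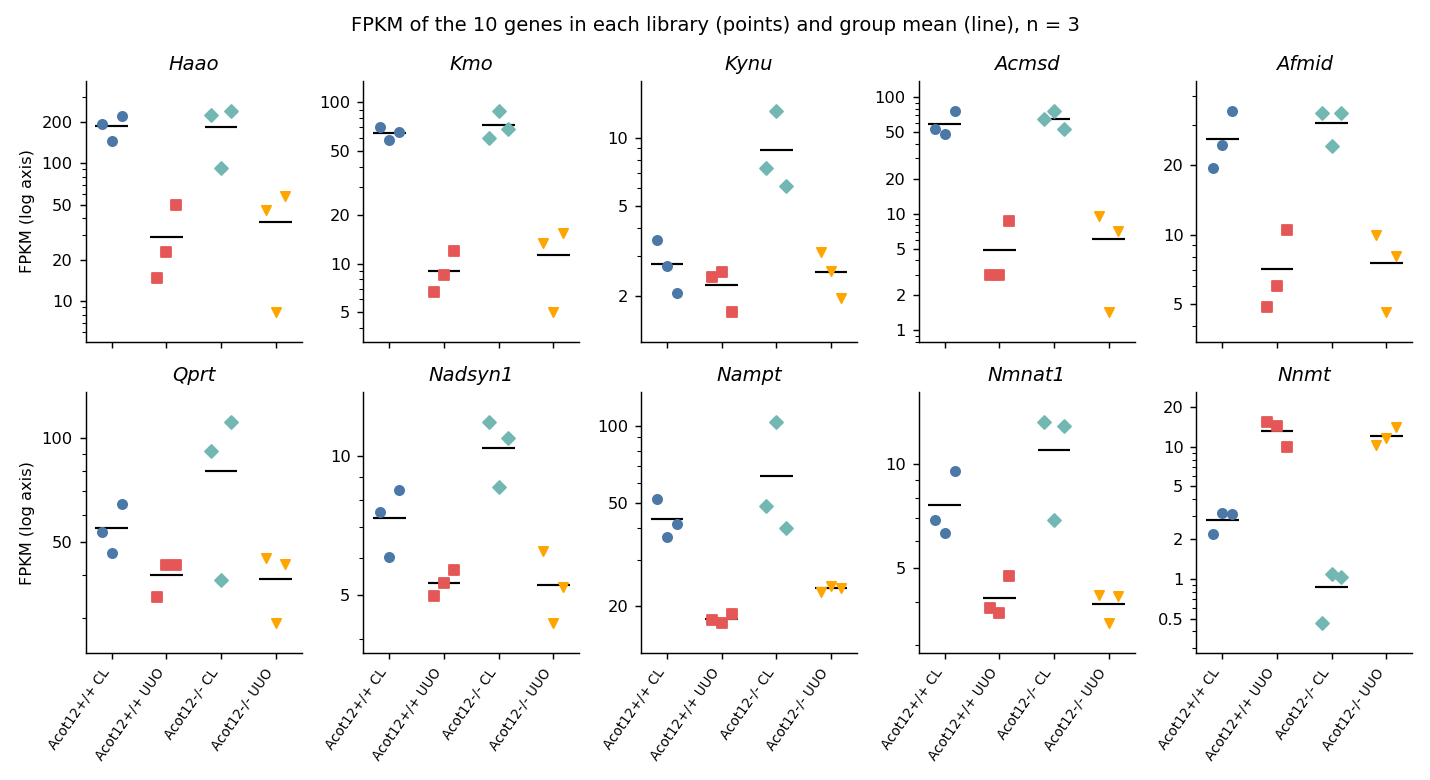
FPKM on a log axis of each of the 10 genes in every library (points) with the mean of each group of 3 (line). Haao, Kmo, Acmsd, Afmid, Nampt and Nmnat1 were lower in each UUO than in each CL library, and Nnmt was higher in each UUO library. Within a genotype, UUO and CL libraries did not overlap for 71.3% (Acot12+/+) and 55.4% (Acot12-/-) of all genes. Kynu was highest in the Acot12-/- CL libraries, at 6.14 to 13.1 FPKM.

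Afmid (chr11:117825924-117839908, plus strand, GRCm38, as are all gene positions here) encodes kynurenine formamidase, which releases kynurenine from formylkynurenine. Its levels were 19.5, 24.5 and 34.4 FPKM in the CL against 4.86, 5.95 and 10.5 in the UUO libraries of Acot12+/+ mice. Libraries of Acot12-/- mice showed 33.8, 24.3 and 33.6 FPKM (CL) against 9.93, 4.61 and 8.06 (UUO). No UUO library reached the lowest CL library of its genotype. Afmid fell by 1.77 on the log2 scale (SE 0.30, adjusted p = 0.000593) in Acot12+/+ and by 1.93 (SE 0.30, adjusted p = 0.000227) in Acot12-/- kidneys. Its annotated span shares 13981 bases on the same strand with the annotated gene Gm20708, not analysed here, so reads of both could have been counted together.

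Kmo (chr1:175620381-175662116, plus strand) encodes kynurenine 3-monooxygenase, which hydroxylates kynurenine and so commits it to the route to NAD. Acot12+/+ CL libraries held 70.7, 58.2 and 65.1 FPKM, Acot12+/+ UUO libraries 6.70, 8.46 and 12.0. Acot12-/- CL libraries held 60.2, 88.2 and 68.4 FPKM, Acot12-/- UUO libraries 13.4, 5.03 and 15.5. In both genotypes the groups were far apart, and the UUO mean was 14.0% and 15.7% of the CL mean. The decreases on the log2 scale were -2.74 (SE 0.33, adjusted p = 5.71e-05) in Acot12+/+ and -2.68 (SE 0.33, adjusted p = 3.73e-05) in Acot12-/- kidneys. Kmo overlaps Fh1, a gene of the opposite strand, over 5255 bases, and whether reads were counted by strand is not given in the sources used here.

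Kynu (chr2:43555329-43682715, plus strand) encodes kynureninase, which cleaves hydroxykynurenine to hydroxyanthranilate. It was low in Acot12+/+ kidneys on both sides, with CL libraries at 3.53, 2.72 and 2.08 FPKM and UUO libraries at 2.44, 2.56 and 1.71. Acot12-/- mice had 7.33, 13.1 and 6.14 FPKM on the CL and 3.13, 2.60 and 1.96 on the UUO side. The CL libraries of the Acot12-/- mice were thus above all other 9 libraries, and the remaining 3 groups overlapped. The log2 fold change with UUO was -0.21 in Acot12+/+ kidneys (95% confidence interval -0.74 to 0.32, adjusted p = 0.496), whereas Kynu fell by 1.42 in Acot12-/- kidneys (SE 0.24, adjusted p = 0.000418). Without Acot12-/- CL replicate 2, the library at 13.1 FPKM, the latter was -1.13 (adjusted p = 0.000547).

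Haao (chr17:83831156-83847963, minus strand) encodes 3-hydroxyanthranilate dioxygenase, whose product closes by itself to quinolinate. It had the highest mean of the 10 genes in both CL groups. Levels were 193, 145 and 220 FPKM in the CL against 14.6, 22.9 and 49.6 in the UUO libraries of Acot12+/+ mice. Libraries of Acot12-/- mice showed 223, 92.1 and 238 FPKM (CL) against 45.7, 8.37 and 58.0 (UUO). The UUO libraries of a group differed by up to 6.93 times, yet none reached the lowest CL library. Haao fell by 2.79 on the log2 scale (SE 0.63, adjusted p = 0.00347) in Acot12+/+ and by 2.53 (SE 0.63, adjusted p = 0.00505) in Acot12-/- kidneys. Its share of the summed FPKM of the 10 genes was 38.4% to 41.9% on the CL side and 13.5% to 30.2% on the UUO side of Acot12+/+ mice. In Acot12-/- mice the sides overlapped, at 20.4% to 41.4% and 8.86% to 32.1%.

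Acmsd (chr1:127729413-127767978, plus strand) encodes the decarboxylase that competes with quinolinate formation for the product of Haao, and it had the most negative log2 fold change of the 10 genes in both genotypes. Acot12+/+ CL libraries held 53.3, 48.9 and 76.1 FPKM and Acot12+/+ UUO libraries 3.01, 2.98 and 8.65. Acot12-/- CL libraries held 65.4, 76.1 and 53.1 FPKM and Acot12-/- UUO libraries 9.52, 1.44 and 7.15. The UUO mean was 8.21% of the CL mean in Acot12+/+ and 9.30% in Acot12-/- kidneys. Log2 fold changes were -3.47 (SE 0.48, adjusted p = 0.000141) and -3.46 (SE 0.48, adjusted p = 9.17e-05). The antisense gene 2900009J06Rik overlaps Acmsd over 14363 bases.

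Qprt (chr7:127107114-127122226, minus strand), quinolinate phosphoribosyltransferase, turns quinolinate into nicotinate mononucleotide. It was the member with the highest mean in UUO kidneys, although its range there overlapped that of Haao. Levels were 53.5, 46.3 and 64.2 FPKM in the CL against 34.6, 42.8 and 43.0 in the UUO libraries of Acot12+/+ mice. Acot12-/- mice had 91.5, 38.7 and 111 FPKM on the CL and 44.9, 29.1 and 43.2 on the UUO side, and the groups overlapped because of Acot12-/- CL replicate 2. The log2 fold change was -0.43 in Acot12+/+ (95% confidence interval -1.14 to 0.27, adjusted p = 0.294) and Qprt fell by 0.92 in Acot12-/- kidneys (SE 0.32, adjusted p = 0.031). Without Acot12-/- CL replicate 2 the latter was -1.37 (adjusted p = 0.000211), and without Acot12-/- CL replicate 1, CL replicate 3 or UUO replicate 2 it was not called (adjusted p = 0.105, 0.12 and 0.122).

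Because Acmsd acts on the product of Haao and Qprt on the quinolinate that forms from this product, their ratio was computed in each library. Qprt over Acmsd was 0.843 to 1.00 on the CL side and 4.97 to 14.4 on the UUO side of Acot12+/+ mice. In Acot12-/- mice it was 0.509 to 2.08 in CL and 4.72 to 20.3 in UUO libraries. All 6 UUO libraries were above all 6 CL libraries in this ratio, which does not depend on the scaling of a library. The separation follows from the larger fall of Acmsd than of Qprt, and how many other gene pairs separate in this way was not counted.

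Nadsyn1 (chr7:143795584-143822849, minus strand) encodes NAD synthetase, the last step of the de novo route. Levels were 7.53, 6.03 and 8.44 FPKM in the CL against 4.97, 5.29 and 5.64 in the UUO libraries of Acot12+/+ mice. Libraries of Acot12-/- mice showed 11.8, 8.53 and 10.9 FPKM (CL) against 6.20, 4.34 and 5.19 (UUO). The groups did not overlap in either genotype, as for 71.3% and 55.4% of all genes. Nadsyn1 fell by 0.87 in Acot12-/- kidneys (SE 0.16, adjusted p = 0.00083). In Acot12+/+ kidneys the log2 fold change was -0.39 (SE 0.16, adjusted p = 0.0668), and it was called with same-numbered kidneys as a block (-0.39, adjusted p = 0.0353).

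Nmnat1 (chr4:149467572-149485202, minus strand), the nuclear adenylyltransferase, serves both the de novo and the salvage route. Acot12+/+ CL libraries held 6.91, 6.32 and 9.56 FPKM and Acot12+/+ UUO libraries 3.83, 3.70 and 4.75. Acot12-/- CL libraries held 13.2, 6.89 and 12.9 FPKM and Acot12-/- UUO libraries 4.18, 3.47 and 4.15. No UUO library reached a CL library. Nmnat1 fell by 0.74 on the log2 scale (SE 0.22, adjusted p = 0.0162) in Acot12+/+ and by 1.24 (SE 0.22, adjusted p = 0.000568) in Acot12-/- kidneys. The Acot12+/+ call was lost without Acot12+/+ CL replicate 3, UUO replicate 1 or UUO replicate 2 (adjusted p = 0.0736, 0.0536 and 0.0573).

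Nampt (chr12:32819545-32853349, plus strand), nicotinamide phosphoribosyltransferase, is the rate-limiting enzyme of salvage. Its levels were 51.9, 37.0 and 41.6 FPKM in the CL against 17.5, 17.1 and 18.5 in the UUO libraries of Acot12+/+ mice. Acot12-/- mice had 48.6, 103 and 39.9 FPKM on the CL and 22.5, 23.8 and 23.5 on the UUO side. UUO libraries of a genotype were close together, differing by at most 1.08 times, and all lay below the CL libraries. Nampt fell by 1.24 (SE 0.27, adjusted p = 0.003) in Acot12+/+ and by 1.29 (SE 0.27, adjusted p = 0.00175) in Acot12-/- kidneys. Without Acot12-/- CL replicate 2, the library at 103 FPKM, the latter was -0.89 (adjusted p = 0.000303). Nampt shares 5033 bases on its own strand with Gdap10, and Nmnat1 lies opposite Tmem274 over 6172 bases. With equal totals the Acot12+/+ calls of Nampt (-0.53, adjusted p = 0.129) and Nmnat1 (-0.13, adjusted p = 0.649) were lost, as were the Acot12-/- calls of Qprt (-0.38, adjusted p = 0.303) and Nadsyn1 (-0.39, adjusted p = 0.114).

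Nnmt (chr9:48591877-48605153, minus strand), nicotinamide N-methyltransferase, was the only one of the 10 genes that rose. Acot12+/+ CL libraries held 2.17, 3.16 and 3.09 FPKM and Acot12+/+ UUO libraries 15.3, 14.4 and 9.92. Acot12-/- CL libraries held 0.462, 1.09 and 1.03 FPKM, about 7, 15 and 16 fragments, and Acot12-/- UUO libraries 10.3, 11.7 and 14.0. The UUO libraries of both genotypes overlapped, and the lowest CL libraries were those of Acot12-/- mice. Nnmt rose by 1.89 on the log2 scale (SE 0.20, adjusted p = 2.92e-05) in Acot12+/+ and by 2.81 (SE 0.20, adjusted p = 1.06e-06) in Acot12-/- kidneys. The mean in UUO was 4.71 and 14.0 times that in CL kidneys. Nnmt over Nampt, the enzymes that compete for nicotinamide, was 0.0417 to 0.0855 on the CL side and 0.536 to 0.878 on the UUO side of Acot12+/+ mice. In Acot12-/- mice this ratio was 0.00951 to 0.0258 in CL and 0.459 to 0.594 in UUO libraries.

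**Figure D2:**
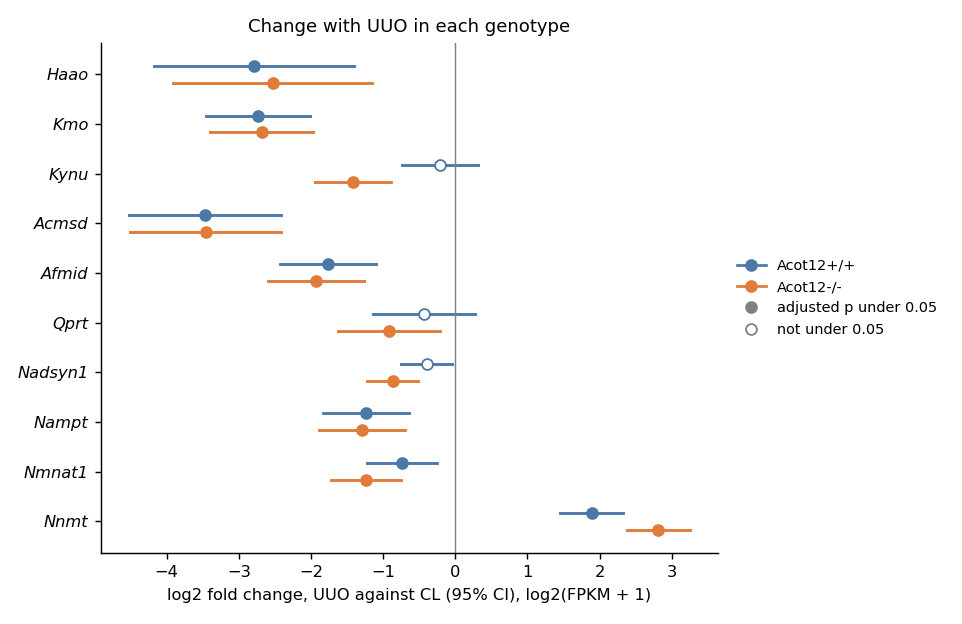
Log2 fold change of each gene in UUO against CL kidneys, on log2(FPKM + 1), with its 95% confidence interval, for Acot12+/+ (blue) and Acot12-/- (orange) mice. Filled points have an adjusted p under 0.05. Acmsd lies farthest to the left, at -3.47 and -3.46, and Nnmt alone lies to the right of 0 at 1.89 and 2.81. With equal totals Kynu, Qprt and Nadsyn1 of Acot12+/+ mice would lie to the right as well, at 0.31, 0.29 and 0.24.

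In a fit over both genotypes all 10 genes were called, 9 lower and 1 higher, as were 63.4% of all genes (32.1% lower and 31.3% higher). The log2 fold changes there ran from -3.46 for Acmsd (SE 0.33) through -0.63 for Nadsyn1 (SE 0.13, adjusted p = 0.000891) to 2.35 for Nnmt (SE 0.19, adjusted p = 3.40e-07). The order of the levels changed between the sides. In Acot12+/+ CL kidneys Haao (186 ± 37.8 FPKM, n = 3) stood above the rest, and Kmo, Acmsd, Qprt and Nampt followed with overlapping ranges between 64.7 and 43.5 FPKM on average. In Acot12+/+ UUO kidneys Qprt (40.1 ± 4.76), Haao (29.0 ± 18.3) and Nampt (17.7 ± 0.717) came first with overlapping ranges between neighbours, Nnmt (13.2 ± 2.89) moved from the ninth place to the fourth, and Acmsd (4.88 ± 3.26) moved from the third to the eighth.

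Windows of 250 bases before a RefSeq start (GRCm38.p6) are described for 7 of the 10 genes. GENCODE annotates exons of other transcripts over 250 bases of the Haao window and 197 bases of the Kmo window, so these are largely transcribed sequence by that annotation. Annotated exons also cover 205 bases of the Afmid window, 197 of the Qprt window, and 204 and 212 of the Nmnat1 windows. The Nadsyn1 and Nampt windows hold no annotated exon, and that of Nampt lies inside the span of a longer Nampt transcript. Windows are shown for Haao and Kmo, which fell more than the others of these 7, and for Nampt, whose window differs from those of Haao and Kmo. The letters TTTGACC, read on either strand and chosen after the windows had been seen, occur in those of Haao and Kmo and in none of the other 5, and 2.25% of 32851 windows hold them. They start 60 and 91 bases before the RefSeq start. For Haao (chr17:83846834-83846860, minus strand) and Kmo (chr1:175632092-175632118, plus strand) only the 27 bases around them are printed, and for Nampt (chr12:32820085-32820334, plus strand) the whole window, 5′ to 3′. Capitals mark TTTGACC in Haao and Kmo, and GGGCGG or its reverse complement in Nampt.
Haao: tgctcagctcTTTGACCtctggtaacc
Kmo: ggaagtgagcTTTGACCaaaccttgct
Nampt: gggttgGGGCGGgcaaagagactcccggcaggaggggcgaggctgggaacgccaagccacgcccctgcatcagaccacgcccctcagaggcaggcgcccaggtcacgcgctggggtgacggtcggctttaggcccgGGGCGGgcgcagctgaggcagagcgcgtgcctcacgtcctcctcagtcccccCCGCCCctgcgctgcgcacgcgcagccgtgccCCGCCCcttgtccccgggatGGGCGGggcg
The Nampt window holds GGGCGG 5 times and 27 CG pairs. Over all windows the quartiles of CG pairs were 2, 6 and 16, and 32.7% held GGGCGG. Haao (6 CG pairs), Kmo (5) and Qprt (6) were near the median, while Afmid (15), Nadsyn1 (23) and Nmnat1 (23 and 24 at its separate starts) were higher. The letters TGANTCA and TATAAA were in no window of these 7 genes and in 6.75% and 12.4% of all windows. GTTAAT was in that of Haao alone and in 6.43% of all. A match is a description of letters, and no binding was measured here.

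Haao, Kmo, Acmsd, Afmid, Qprt, Nadsyn1 and Nmnat1 were lowest in the UUO library with the lowest proximal tubule markers. The summed FPKM of 12 such markers was 3710 to 4460 (Acot12+/+) and 5060 to 6940 (Acot12-/-) on the CL side. It was 797, 931 and 1470 in the Acot12+/+ UUO and 1770, 623 and 1610 in the Acot12-/- UUO libraries, and 11 and 12 of the 12 markers were called lower with UUO in the genotypes in turn. Acot12-/- UUO replicate 2, with the lowest marker sum of all, also had the lowest Haao (8.37 FPKM), Kmo (5.03), Acmsd (1.44) and Afmid (4.61) of all 12 libraries. The same held for Qprt (29.1 FPKM), Nadsyn1 (4.34) and Nmnat1 (3.47). Within Acot12+/+ UUO, replicate 3 had the highest marker sum and the highest Haao, Kmo, Acmsd, Afmid, Qprt, Nadsyn1, Nampt and Nmnat1. Without Acot12-/- UUO replicate 2 the Acot12-/- log2 fold changes were -1.70 for Haao (adjusted p = 0.0147), -2.23 for Kmo and -2.82 for Acmsd. The summed level of 10 fibroblast markers was 149 to 191 FPKM on the CL and 382 to 548 on the UUO side of Acot12+/+ mice, and 7 of the 10 were called higher. That of 11 macrophage markers was 170 to 191 FPKM and 727 to 868 FPKM, and 10 of the 11 were called higher. That of 8 injured tubule markers was 966 to 2950 FPKM and 15000 to 16400 FPKM, and all 8 were called higher. Most of this sum was Spp1, at 878 to 2760 FPKM and 13300 to 14700 FPKM. In Acot12+/+ mice 5 of 6 tested lymphocyte markers were called higher, as were 5 of 6 in Acot12-/- mice. Of 8 endothelial markers 1 was called higher and 4 lower in Acot12+/+ mice, but 5 higher and 0 lower in Acot12-/- mice. All 8 markers of other tubule segments were called lower in Acot12+/+ and 7 of 8 in Acot12-/- mice. The part of cell composition in these changes was not tested.

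**Figure D3:**
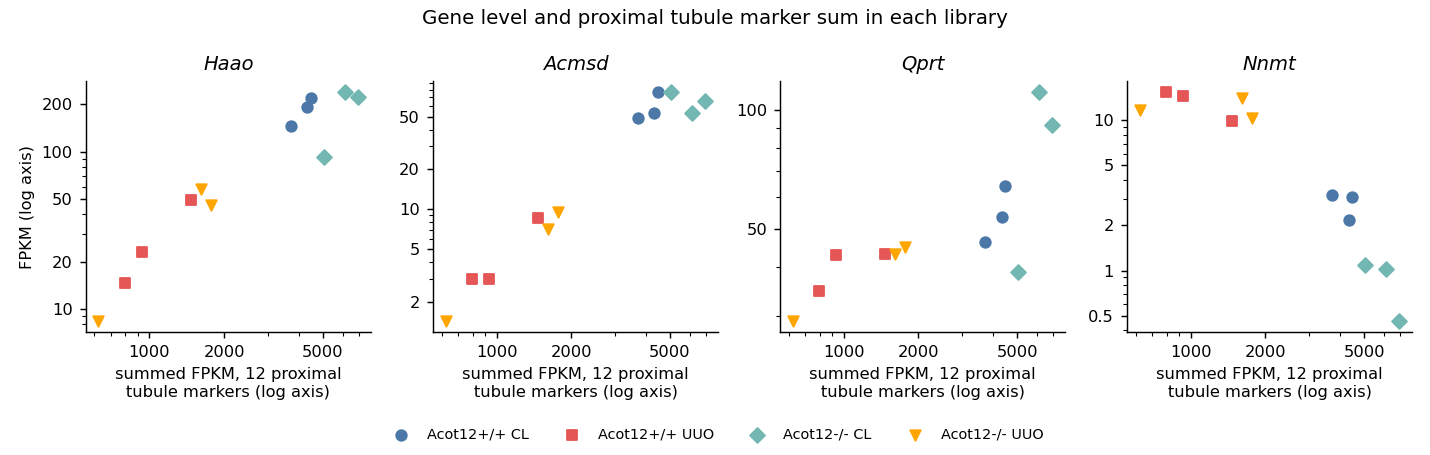
FPKM of Haao, Acmsd, Qprt and Nnmt in each library against the summed FPKM of 12 proximal tubule markers, both on log axes, with 1 point per library and 4 groups. The 3 UUO libraries with the lowest marker sums have less Haao and Acmsd than the other 3, from 8.37 FPKM of Haao at a sum of 623 to 58.0 FPKM at 1610. Qprt spans 29.1 to 44.9 FPKM in the same Acot12-/- libraries and is also lowest at the sum of 623.

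Between genotypes, 2 of the 10 genes differed in CL kidneys, where 4.48% of all genes were called (1.12% higher and 3.36% lower). Kynu was higher in Acot12-/- CL (8.85 ± 3.70 FPKM, n = 3) than in Acot12+/+ CL kidneys (2.77 ± 0.726), which is 1.34 on the log2 scale (SE 0.24, adjusted p = 0.0119). Nnmt was lower, with 0.859 ± 0.345 against 2.81 ± 0.555 FPKM, which is -1.04 on the log2 scale (SE 0.20, adjusted p = 0.0146). In neither gene did the groups overlap, as in 18.3% of all genes. Nadsyn1 (0.45, adjusted p = 0.164), Nmnat1 (0.45, adjusted p = 0.333), Qprt (0.43, adjusted p = 0.572) and Nampt (0.43, adjusted p = 0.479) had positive values that were not called. Haao (-0.11), Kmo (0.14), Acmsd (0.14) and Afmid (0.24) had intervals that covered 0, the widest being that of Haao from -1.49 to 1.27.

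These calls depended on single libraries. Without Acot12-/- CL replicate 2, 5 of the 10 genes were called: Kynu (1.05, adjusted p = 0.00671), Nnmt (-1.13, adjusted p = 0.00697), Nmnat1 (0.73, adjusted p = 0.0115), Qprt (0.88, adjusted p = 0.0146) and Nadsyn1 (0.58, adjusted p = 0.0232). Over all genes 2923 instead of 593 were then called. Without Acot12+/+ CL replicate 3 neither gene was called (Kynu adjusted p = 0.0504, Nnmt adjusted p = 0.0586), and Nnmt was also lost without Acot12+/+ CL replicate 2 (adjusted p = 0.0585) or Acot12-/- CL replicate 1 (adjusted p = 0.0627). A fit of the 2 CL groups alone called neither (adjusted p = 0.105 and 0.0863). Beside these results, Acot12-/- CL libraries had lower summed levels of fibroblast markers (51.1 to 117 against 149 to 191 FPKM), macrophage markers (57.9 to 128 against 170 to 191), endothelial markers (48.8 to 76.7 against 140 to 233) and lymphocyte markers (3.74 to 5.73 against 10.8 to 16.9). Of these lists, 3 of 10 tested fibroblast, 4 of 11 macrophage, 6 of 8 endothelial and 3 of 6 lymphocyte genes were called, all lower, and the proximal tubule sum was higher, with 0 of 12 genes called. Of the lymphocyte markers 1 was at 0 in a library of Acot12+/+ CL and 3 in Acot12-/- CL kidneys. The part of these cell types in the Nnmt and Kynu differences was not tested.

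In UUO kidneys limma called none of the 10 genes between genotypes, and 0 of the 10 had an unadjusted p under 0.05. Over all genes 0.0151% were called and 2.36% had such an unadjusted p. The log2 fold changes ran from -0.12 for Nnmt (95% confidence interval -0.56 to 0.32) to 0.38 for Nampt (-0.22 to 0.97). Each Acot12-/- UUO library had more Nampt (22.5 to 23.8 FPKM) than each Acot12+/+ UUO library (17.1 to 18.5), a separation found in 12% of all genes. For Kynu the interval was -0.40 to 0.66 and for Haao the wider -1.23 to 1.53.

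The difference in the UUO response between genotypes was tested as an interaction, which again called none of the 10 genes, beside 0.106% of all genes. At an unadjusted p under 0.05 there were 2 of the 10, as were 10.5% of all genes. Kynu had an interaction of -1.20 (SE 0.34, adjusted p = 0.173) and Nnmt of 0.92 (SE 0.28, adjusted p = 0.211). Haao, Kmo and Acmsd had estimates of 0.26, 0.06 and 0.01, with SE of 0.90, 0.46 and 0.68. Without Acot12-/- CL replicate 2, 916 instead of 14 of all genes had a called interaction, and still none of the 10. Their smallest adjusted p-values were then 0.0547 for Nmnat1 (-0.77), 0.0579 for Nnmt, 0.0612 for Kynu (-0.92) and 0.0644 for Qprt (-0.94). How many genes the interaction test called thus depended on this library. The CL groups enter this test, both UUO comparisons and the CL comparison of genotypes, so the values of Kynu and Nnmt in these are not separate observations.

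**Figure D4:**
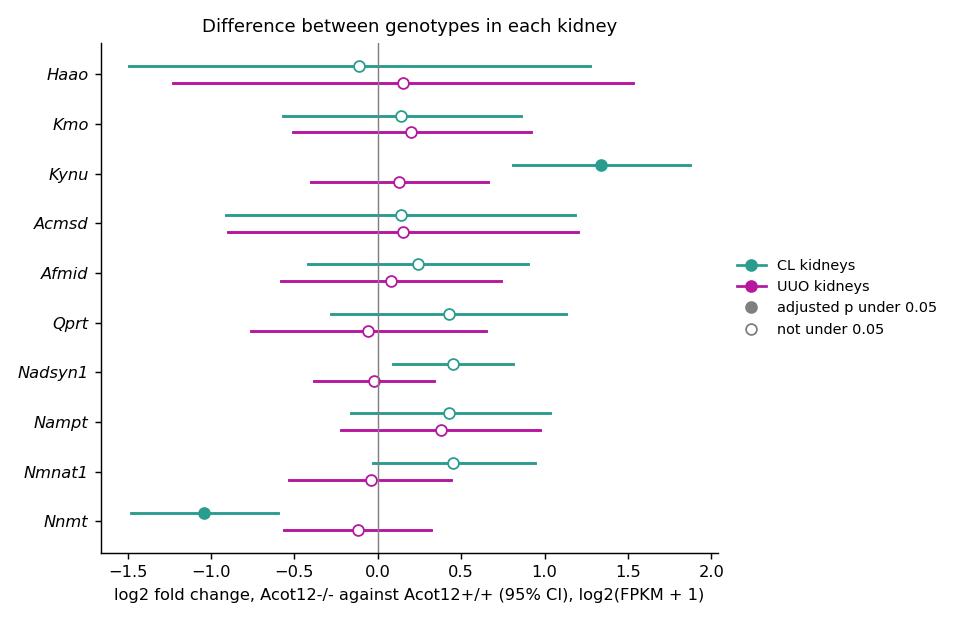
Log2 fold change of each gene in Acot12-/- against Acot12+/+ mice, on log2(FPKM + 1), with its 95% confidence interval, in CL (teal) and UUO (magenta) kidneys. Filled points have an adjusted p under 0.05, and these are Kynu at 1.34 and Nnmt at -1.04 in CL kidneys.

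The other enzymes of the kynurenine pathway fell with UUO where they were measurable. Of 6 genes 4 were tested and all 4 were called lower in both genotypes, beside 23.9% and 27.2% of all genes. Aadat, which makes kynurenate, went from a mean of 229 to 26.4 FPKM in Acot12+/+ kidneys, and its log2 fold changes were -3.25 (adjusted p = 0.000255) and -3.15 (adjusted p = 0.000211) in Acot12+/+ and Acot12-/- mice. Ido2, a dioxygenase that opens tryptophan, had -1.95 and -2.08, and the aminotransferases Ccbl2 and Ccbl1 had -1.93 and -2.0, and -1.24 and -1.30. With equal totals 3 and 4 of the 4 were still called lower, beside 7.91% and 11.7% of all genes. Tdo2 and Ido1, the other enzymes of the first step, were not tested, with at most 0.159 and 0.17 FPKM in any library.

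Of 9 other genes of NAD synthesis and salvage 7 were tested, and 4 fell in both genotypes, beside 23.9% and 27.2% of all genes. Nadk2 and Nadk, kinases that make NADP from NAD, had log2 fold changes of -1.88 and -0.84 in Acot12+/+ and -2.06 and -0.95 in Acot12-/- kidneys. Nmrk1, which phosphorylates nicotinamide riboside, had -0.79 and -1.17, and the purine nucleoside phosphorylase Pnp had -0.60 and -0.39. With equal totals only Nadk2 was still called lower in each genotype, beside 7.91% and 11.7% of all genes. Pnp turned to 0.12 and 0.15 without a call. Nmnat3 was called higher in Acot12+/+ kidneys (0.77, adjusted p = 0.00371), as were 56.1% of all genes. Nicotinamide oxidation could not be tested, since Aox1, Aox3 and Aox4 reached at most 0.377 FPKM.

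Among 8 tested transporters of tryptophan, kynurenine and nicotinate, 4 were lower and 1 was higher with UUO in Acot12+/+, and 7 were lower and 1 higher in Acot12-/- kidneys. Of all genes 23.9% and 27.2% were called lower, and 23.6% and 26.6% higher. The carriers Slc5a8 (-2.97 and -2.77), Slc6a19 (-2.63 and -3.58) and Slc22a13 (-2.46 and -2.45) fell most, and Slc7a5, a chain of an amino acid exchanger, rose (1.39 and 1.27). With equal totals 3 and 6 of the 8 were called lower and 2 and 1 higher. The shares of all genes were then 7.91% and 11.7% lower, and 56.1% and 45.9% higher. In CL kidneys 4 of the 8 were higher in Acot12-/- mice, a count whose genes are named after their values were seen: Slc7a8 (1.59, adjusted p = 0.00913), Slc6a19 (1.58, adjusted p = 0.0421), Slc3a2 (1.28, adjusted p = 0.0109) and Slc16a10 (0.96, adjusted p = 0.0071). A fit of the CL groups alone called none of them, and 1 gene in all, which was lower. Of all genes 1.12% were called higher there.

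Of 19 tested genes that use NAD, 6 rose and 2 fell in Acot12+/+ kidneys, beside 23.6% higher and 23.9% lower of all genes. In Acot12-/- kidneys 6 rose and 3 fell, beside 26.6% and 27.2% of all genes. The polymerase family gene Parp14 rose in both (1.55 and 1.96), Parp3 rose in both (0.99 and 0.70), and Cd38, which cleaves NAD at the cell surface, rose by 1.68 in Acot12-/- mice (adjusted p = 0.000249). Sirt3, the mitochondrial deacetylase, fell (-1.82 and -1.69). With equal totals 14 and 10 of the 19 were called higher, beside 56.1% and 45.9% of all genes, and 1 was called lower in each genotype, beside 7.91% and 11.7%.

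Around Nnmt, which takes its methyl group from S-adenosylmethionine, 5 of 6 genes of methyl donor metabolism were lower with UUO in both genotypes. Of all genes 23.9% and 27.2% were called lower. The glycine methyltransferase Gnmt (-2.82 and -2.39), Ahcy (-2.73 and -2.73) and Mat2a (-1.05 and -1.22) had the largest log2 fold changes on log2(FPKM + 1). By the ratio of means the low gene Bhmt fell more than Mat2a, to 10.5% and 16.0% of its CL mean against 48.1% and 42.3%. With equal totals 3 and 4 of the 6 were called lower, beside 7.91% and 11.7% of all genes. Of 5 tested genes of the aryl hydrocarbon receptor, for which kynurenine is a ligand, Cyp1b1 rose (1.16 and 2.30) and Tiparp fell (-0.87 and -0.85) in Acot12+/+ and Acot12-/- kidneys, the latter without a call under equal totals, and Ahr rose by 0.59 in Acot12-/- kidneys with overlapping groups. In CL kidneys Cyp1b1 was lower in Acot12-/- mice (-1.28, adjusted p = 0.0239).

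**Figure D5:**
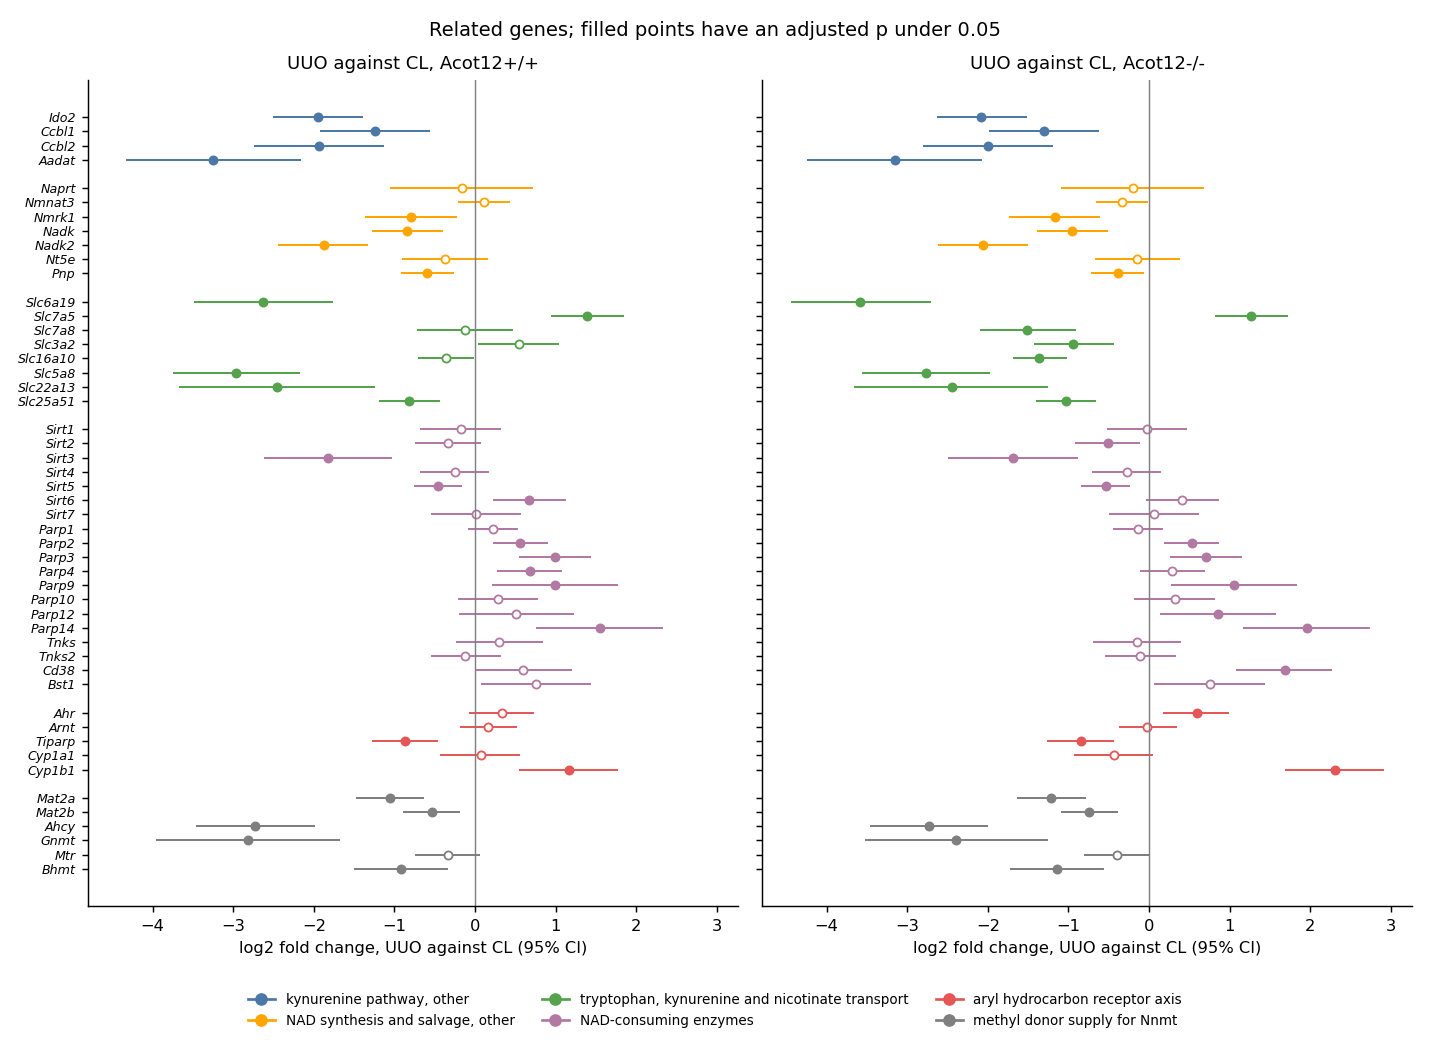
Log2 fold change in UUO against CL kidneys with its 95% confidence interval for the tested genes of 6 related lists, in Acot12+/+ (left) and Acot12-/- (right) mice. Filled points have an adjusted p under 0.05. All 4 other kynurenine pathway genes lie left of 0, and NAD-consuming enzymes lie on both sides, with 6 called higher in each genotype. With equal totals the points would shift right, by 0.62 and 0.44 at the median of all genes, and Naprt, Nt5e, Pnp, Sirt1, Sirt2, Sirt4, Tnks2 and Mtr would change sign in both genotypes.

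Likeness of pattern was measured over the 12 libraries as the root mean square difference of centred log2(FPKM + 1) profiles. Nearest to Haao was Gnmt, a glycine methyltransferase (0.216), followed by Aspdh (0.227). Oxct1 (0.154) and Glod5 (0.162) were nearest to Kmo, Slc16a4 (0.181) and Adhfe1 (0.188) to Acmsd, and Gpr137b-ps (0.155) and Sdhb (0.165) to Afmid. Qprt was nearest to Fads3 (0.109) and Jmjd8 (0.126), Nadsyn1 to Naa60 (0.0808) and Tmem175 (0.0809), and Nmnat1 to Amt (0.0695) and Stk16 (0.111). Nampt was nearest to Cobll1 (0.156) and Ptprd (0.168), Kynu to Tnfrsf21 (0.261) and Gm11837 (0.271), and Nnmt to Alox5ap (0.191) and Tmem173 (0.227). Among the 10 genes themselves the closest pairs were Nadsyn1 with Nmnat1 (0.228), Qprt with Nmnat1 (0.242) and Qprt with Nadsyn1 (0.261). Kmo with Acmsd (0.48) was the closest pair among the genes that fell most, and Kynu was nearer to Nampt (0.447) than to any other of the 10. Many other tested genes were nearer still. Nmnat1 ranked 594 in nearness to Nadsyn1 and 210 to Qprt, and Nadsyn1 ranked 306 to Qprt. Acmsd ranked 196 to Kmo, and Nampt 274 to Kynu.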

How the data were processed

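RNA was sequenced from 12 kidney cortex libraries (NEBNext Ultra II directional kit, NovaSeq instrument). Trimming, mapping and normalization were done for the authors by a sequencing company. Submitters' notes name mm10 and edgeR, and the aligner is not given in the sources used here. The deposited values are FPKM, a unit derived from the values: at the low end they go up in equal steps, and these steps shrink as transcripts get longer. Since the authors' scaling may have altered these steps, fragment numbers are approximate and true depth is uncertain. The median-ratio factors of the libraries were 0.9648 to 1.01.

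Genes with at least 1 FPKM in at least 3 libraries were tested, leaving out 58 listed at 0 beside at least 10 FPKM in the same group. limma 3.58.1 (R 4.3.3) fitted log2(FPKM + 1) over 4 groups with a variance trend, after it was tested on simulated data. FPKM do not allow a count model, and fold changes understate low genes. Main fits had no mouse block. Residuals of same-numbered CL and UUO kidneys correlated at 0.134, 0.364 and 0.335 (Acot12+/+) and 0.322, 0.186 and 0.318 (Acot12-/-). Kidneys of unlike numbers in a genotype correlated at -0.363 to 0.139. The numbers were therefore taken to pair kidneys, though the labels do not name the mice.

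The members, lists and tests were chosen with earlier results of these data known. Genes named are the 10 members, Acot12, per list up to 3 called genes with the largest change and no overlap, and per member the 2 nearest profiles. Further list genes were named after their values were seen. Positions come from GENCODE vM21. Alternatives changed the pseudocount, filter, scaling, trend, block or samples. Upstream windows of 3 members are not reported here.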

Additional observations from a re-analysis of the deposited data

How the results depend on the processing

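With 3 libraries a group, the number of the 10 genes called stayed at 6 to 8 for UUO in Acot12+/+, 9 to 10 in Acot12-/- and 9 to 10 over both genotypes when each library was left out in turn, and at 0 to 0 for genotype in UUO kidneys and for the interaction. For genotype in CL kidneys it was 0 to 5, and 0 in a fit of the 2 CL groups alone, where 1 gene of all was called instead of 593. The cause was not tested. Over all 13243 genes, fits with a library left out called 4925 to 8189 for UUO in Acot12+/+ and 5849 to 8400 in Acot12-/- kidneys. They called 7838 to 9107 over both genotypes and 0 to 2 for genotype in UUO kidneys. For genotype in CL kidneys they called 189 to 2923, and for the interaction 0 to 916. The replicate block, which pairs kidneys by number, called 8 and 10 of the 10 genes for UUO in Acot12+/+ and Acot12-/- mice. Of all genes it called 6754 and 7445. It changed a call only for Nadsyn1 in Acot12+/+ mice (-0.39, adjusted p = 0.0353). Fitted alone, Acot12+/+ kidneys also gave calls for Nadsyn1 (adjusted p = 0.024) and Qprt (adjusted p = 0.0307), and Acot12-/- kidneys none for Qprt (adjusted p = 0.0945). Nadsyn1 of Acot12+/+ kidneys was called without Acot12+/+ CL replicate 2 (adjusted p = 0.0384) or Acot12-/- CL replicate 2 (adjusted p = 0.0256), and Qprt over both genotypes was lost without Acot12-/- UUO replicate 2 (adjusted p = 0.0509).

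With equal totals, log2 fold changes turned to 0.31 for Kynu, 0.29 for Qprt and 0.24 for Nadsyn1 with UUO in Acot12+/+ kidneys, to -0.02 for Haao, -0.01 for Acmsd and -0.07 for Afmid between genotypes in UUO kidneys, and to -0.12 for Kmo and -0.16 for Acmsd in the interaction. A pseudocount of 0.1 turned the interaction of Acmsd to -0.02. None of these was called. Over both genotypes Kynu (-0.33), Qprt (-0.04) and Nadsyn1 (-0.07) lost their calls with equal totals.

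Leaving out single libraries turned uncalled signs between genotypes. In UUO kidneys the ranges were -0.35 to 0.98 for Haao, -0.07 to 0.65 for Kmo, -0.27 to 0.79 for Acmsd, -0.13 to 0.37 for Afmid, -0.17 to 0.14 for Qprt, -0.13 to 0.08 for Nadsyn1 and -0.10 to 0.05 for Nmnat1. In CL kidneys they were -0.35 to 0.33 for Haao and -0.01 to 0.26 for Kmo. For the interaction they were -0.24 to 1.09 for Haao, -0.22 to 0.51 for Kmo, -0.40 to 0.65 for Acmsd, -0.37 to 0.12 for Afmid and -0.33 to 0.35 for Nampt.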
